A study of Mus musculus with 31 samples.

Results

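The genes described here are 8 enzymes of cholesterol synthesis, chosen by name, among the 48709 genes counted in the basolateral amygdala (BLA) of 31 mice. They are Hmgcs1, Idi1, Fdps, Fdft1, Sqle, Lss, Cyp51 and Dhcr7. All 8 were among the 17428 genes that reached 10 reads in 20% or more of the mice. The BLA is a part of the amygdala that takes part in learned fear, and tissue punched from the left and right side was pooled for each mouse. RNA was measured by QuantSeq, which reads transcripts from near their poly(A) tail, so a gene's count is not divided by its length. The CYFIP1 OE mice (OE) carried a human CYFIP1 BAC, a large piece of human DNA with the gene, that had been injected into C57BL/6N embryos, and founders crossed to C57BL/6N mice gave the lines labelled 1 and 3. WT mice without the transgene, labelled Control, served as controls in each line. The paper describes them as littermates, and the labels do not give litters. Line 1 gave 8 WT mice (4 males, 4 females) and 7 OE mice (3 males, 4 females), and line 3 gave 8 of each (4 males and 4 females in both). WT mice were 58 to 61 days old, OE mice of line 3 were 58 to 64 days old and OE mice of line 1 were 59 to 77 days old. The 4 oldest, aged 77 days, were all in the OE group of line 1, whose other mice were 59 to 62 days old. In line 1, 7 of the 8 WT mice shared 1 name prefix that held no OE mouse. Genotype in line 1 thus goes in part with age and for the most part with prefix. It cannot be fully told apart from age or from whatever the prefix stands for.

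Cholesterol is built in the cell from acetyl groups. The early enzymes make mevalonate and isoprenoid units, the middle enzymes join these into squalene, and the late enzymes close squalene into a ring and trim it to cholesterol. The brain makes its own cholesterol because lipoproteins of the blood do not cross into it, myelin holds most of it, and the genes of the pathway are switched on together by the transcription factor SREBP2 when a cell's sterols run low.

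SREBP2 binds sterol regulatory elements, often beside CCAAT boxes that bind NF-Y, so the promoters of the members are shown with these motifs. Windows from 250 bases before to 50 bases after the start of the gene, from RefSeq on GRCm38.p6, were matched for 5 of the 8 members, namely Hmgcs1, Idi1, Lss, Cyp51 and Dhcr7, and not for Fdps, Fdft1 and Sqle. The letters TCACNCCAC (a sterol regulatory element) and CCAAT were searched on both strands, and no match to one overlapped a match to the other in these windows. The 4 windows printed here belong to genes with 1 window each. They read 5′ to 3′ on the strand of the gene, from chr13:119690101-119690400 (plus strand) for Hmgcs1, chr13:8885356-8885655 (plus strand) for Idi1, chr10:76531355-76531654 (plus strand) for Lss and chr5:4104648-4104947 (minus strand) for Cyp51. Capitals mark the matches.
Hmgcs1: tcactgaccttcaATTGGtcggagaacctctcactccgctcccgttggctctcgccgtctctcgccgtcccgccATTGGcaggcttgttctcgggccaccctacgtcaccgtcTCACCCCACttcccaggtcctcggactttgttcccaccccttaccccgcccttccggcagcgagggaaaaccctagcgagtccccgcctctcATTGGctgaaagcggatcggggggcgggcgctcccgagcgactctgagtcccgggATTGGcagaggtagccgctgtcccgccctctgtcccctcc
Idi1: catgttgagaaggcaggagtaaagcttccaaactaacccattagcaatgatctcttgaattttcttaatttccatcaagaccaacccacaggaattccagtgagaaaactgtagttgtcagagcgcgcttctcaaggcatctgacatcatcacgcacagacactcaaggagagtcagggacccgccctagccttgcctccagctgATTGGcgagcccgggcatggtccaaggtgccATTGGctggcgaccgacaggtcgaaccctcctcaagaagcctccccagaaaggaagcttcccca
Lss: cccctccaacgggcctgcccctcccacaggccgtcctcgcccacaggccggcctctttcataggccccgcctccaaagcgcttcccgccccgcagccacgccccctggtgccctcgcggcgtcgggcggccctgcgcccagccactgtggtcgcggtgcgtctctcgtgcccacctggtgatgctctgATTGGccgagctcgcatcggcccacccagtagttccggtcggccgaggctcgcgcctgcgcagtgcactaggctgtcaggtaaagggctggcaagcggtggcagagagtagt
Cyp51: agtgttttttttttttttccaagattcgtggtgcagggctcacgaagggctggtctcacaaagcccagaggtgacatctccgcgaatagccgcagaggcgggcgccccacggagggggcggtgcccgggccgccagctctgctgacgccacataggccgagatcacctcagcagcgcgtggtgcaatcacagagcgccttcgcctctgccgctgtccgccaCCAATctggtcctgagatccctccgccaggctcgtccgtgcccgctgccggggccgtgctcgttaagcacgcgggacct
The Hmgcs1 window held 1 match to the sterol regulatory element, starting at base 114 of the window, and 4 CCAAT boxes. Such a sterol match was present in 1.24% of all 32851 promoter windows of this length and a CCAAT box in 37.4% of them. Idi1 had 2 CCAAT boxes, Lss and Cyp51 had 1 each, and 1 of the 3 windows of Dhcr7 had 2. These letters of the sterol regulatory element were not in the windows of Idi1, Lss, Cyp51 or Dhcr7.

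Between 5286708 and 8685308 reads per mouse fell on genes, with a median of 7387585. Mouse Cyfip1 had a median of 31.5 CPM (reads of the gene relative to all reads of the mouse, with TMM normalization) in WT and 34.4 in OE mice of line 1, and of 35.8 and 32.6 CPM in line 3, without a difference that passed the test (edgeR log2 fold change -0.02, SE 0.08, adjusted p = 0.999). The transgene is human and reads were mapped to the mouse genome, so this gene is no check of the genotype labels. One mouse, a male OE mouse of line 3, stood apart from the others in how well its profile correlated with theirs (connectivity Z-score -4.74, against -1.18 for the next lowest and 1.07 for the highest). The paper states that outlying samples with low connectivity Z-scores were removed, and by the score here this mouse lay past its threshold. In the main fits here it was kept, and fits without it are alternatives. This mouse had the highest Slc17a7 (a marker of excitatory neurons of the cortex and its relatives) of the 31 mice, at 1109 CPM. Summed markers of striatal neurons ranged from 145 to 2689 CPM over mice, those of choroid plexus from 16.2 to 8261 CPM and those of oligodendrocytes from 1170 to 9202 CPM, while those of neurons in general ranged from 1430 to 2772 CPM. In bulk tissue of this kind fewer cells of a type and less RNA per cell cannot be told apart.

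Hmgcs1 makes HMG-CoA, from which mevalonate is formed, and Idi1 and Fdps then convert isoprenoid units to farnesyl diphosphate. Hmgcs1 (ENSMUSG00000093930, chr13:119690379-119708260) averaged 262.9 ± 32.1 CPM over the 16 WT mice and 249.2 ± 55.9 CPM over the 15 OE mice (mean ± SD, as for the genes that follow). Idi1 (ENSMUSG00000058258, chr13:8885501-8892451) had 11.5 ± 3.05 and 9.94 ± 4.94 CPM, and Fdps (ENSMUSG00000059743, chr3:89093588-89101959) had 36.1 ± 7.56 and 34.4 ± 11.8 CPM. In all 3 genes the OE mice spanned the whole range of the WT mice and went beyond it on both sides. Idi1 counts were low, between 14 and 163 reads per mouse.

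Fdft1 joins farnesyl diphosphate into squalene, Sqle oxidizes squalene, a slow step of the pathway, and Lss closes the sterol ring. Fdft1 (ENSMUSG00000021273, chr14:63145150-63179578) had 83.8 ± 9.59 CPM in WT mice and 76.7 ± 17.4 CPM in OE mice. Sqle (ENSMUSG00000022351, chr15:59315077-59331192) had 20.5 ± 4.49 and 19.2 ± 5.92 CPM, and Lss (ENSMUSG00000033105, chr10:76531588-76557138) had 7.89 ± 2.30 and 5.86 ± 1.32 CPM. Lss was the least abundant member, with 28 to 90 reads per mouse, so its values carry counting error as well as the spread between mice. The last part of the pathway is held by Cyp51, which removes a methyl group of lanosterol, and by Dhcr7, which reduces the last double bond on the way to cholesterol. Cyp51 (ENSMUSG00000001467, chr5:4081145-4104746) had 51.1 ± 8.26 and 50.5 ± 5.89 CPM and Dhcr7 (ENSMUSG00000058454, chr7:143823145-143848410) 10.2 ± 2.56 and 8.43 ± 1.97 CPM. Fdft1 overlaps Ctsb by 774 bases and Cyp51 overlaps Akap9 by 166 bases at their 3′ ends on opposite strands, and whether the counting used strand is not given in the sources used here. Over mice, r was 0.415 between Fdft1 and Ctsb and -0.261 between Cyp51 and Akap9, as a description.

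**Figure D1:**
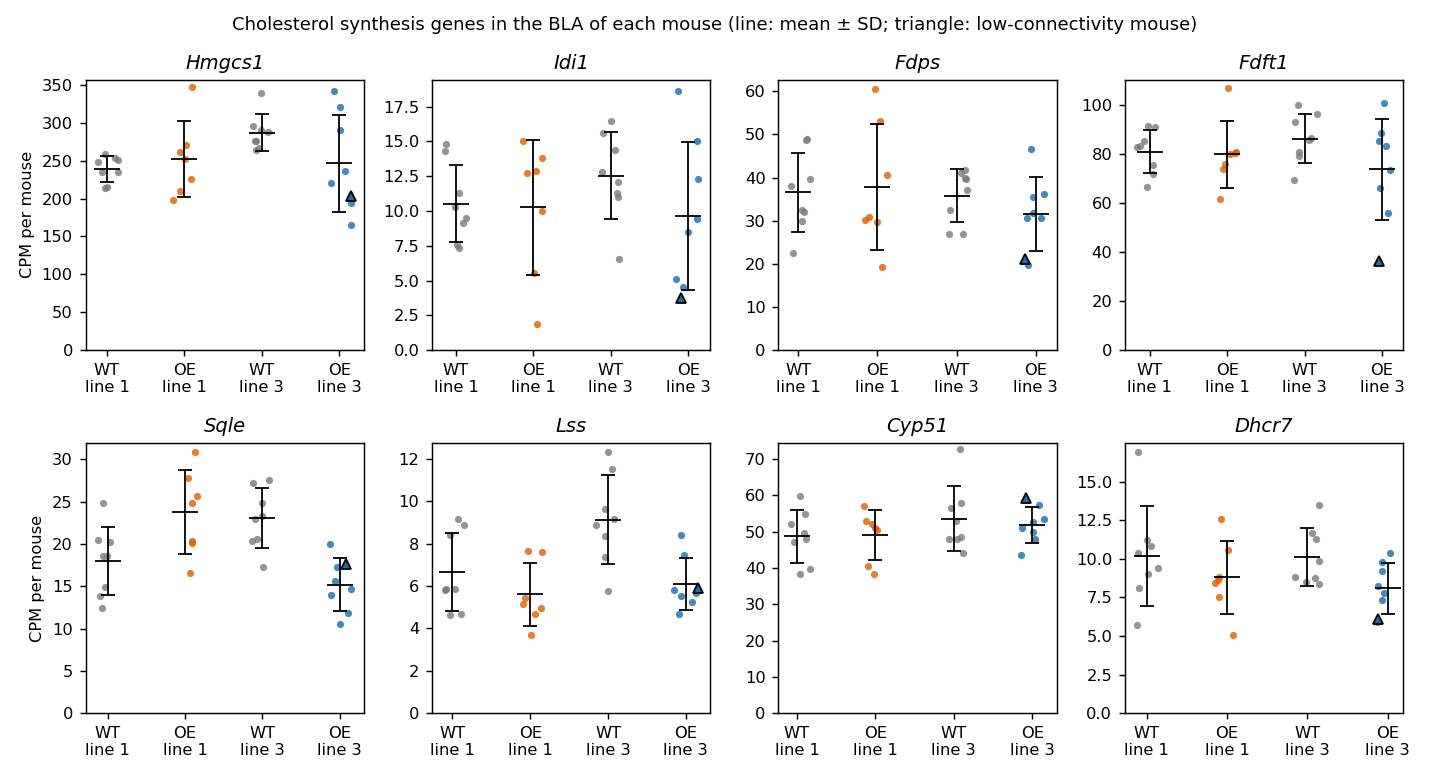
CPM (TMM-normalized, linear axis from 0) of the 8 genes in each of the 31 mice by genotype and line, with bars for the mean and SD of each group and a triangle for the low-connectivity mouse. Sqle of the OE mice lies between 16.6 and 30.9 CPM in line 1 and between 10.5 and 20 CPM in line 3, and the points of Hmgcs1, Idi1 and Fdft1 spread more widely in OE than in WT mice.

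With sex and line in the model, all 8 genes had a lower fitted mean in OE than in WT mice, by 0.02 (Cyp51) to 0.41 (Lss) on the log2 scale, and none passed the test. In edgeR's quasi-likelihood test with Benjamini-Hochberg adjustment 0 of the 8 had an adjusted p under 0.05, against 0.0% of all 17428 genes, and DESeq2 also called 0 of the 8. At an unadjusted p under 0.05 there was 1 of the 8 (Lss), against 4.3% of all genes, and under 0.005, the threshold of the study, 0 of the 8, against 0.293%. The median log2 fold change was -0.12 over the 8 genes and -0.005 over all genes, of which 48.7% were positive. Lss ranged from 4.65 to 12.3 CPM in WT mice (median 8.38) and from 3.71 to 8.39 CPM in OE mice (median 5.51). The ranges of the genotypes overlapped, and the fitted fold change was 0.75 (log2 -0.41, SE 0.14, 95% interval -0.70 to -0.13, adjusted p = 0.999). Dhcr7 had a log2 fold change of -0.27 (SE 0.14, adjusted p = 0.999).

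For Sqle the fitted mean was higher in OE than in WT mice in line 1 and lower in line 3, and neither difference passed the adjustment over all genes. In line 1 Sqle ranged from 12.5 to 24.8 CPM in WT mice (median 18.6) and from 16.6 to 30.9 CPM in OE mice (median 24.8). There 6 of 7 OE mice were above the WT median and 4 were above the highest WT mouse. In line 3 the order was the other way, with 17.3 to 27.6 CPM in WT mice (median 23.2) and 10.5 to 20 CPM in OE mice (median 15.2). All 8 OE mice were below the WT median of that line and 6 were below its lowest WT mouse. The fitted log2 fold change of Sqle was 0.40 in line 1 (SE 0.16, 95% interval 0.09 to 0.71, adjusted p = 1.0) and -0.60 in line 3 (SE 0.15, 95% interval -0.90 to -0.30, adjusted p = 0.514). On log2 CPM of this gene alone, a two-sided exact permutation test over mice gave p = 0.0345 in line 1 and p = 0.000466 in line 3, of 16 such tests (8 genes in 2 lines), with no adjustment for their number. The difference between the lines was -1.00 on the log2 scale (SE 0.22, 95% interval -1.43 to -0.57, adjusted p = 0.476, permutation p = 9e-05 with genotypes permuted within lines). That permutation tests for no genotype difference in either line, not for equal differences, and it ignores name prefixes. It was run for each of the 8 genes, without adjustment for their number. For the difference between the lines DESeq2 gave -0.99 (adjusted p = 0.0574), so it did not pass the adjustment over all genes with either tool. It was -1.01 without the low-connectivity mouse (adjusted p = 0.163), -0.99 without the mice aged 77 days and -0.64 with 5 surrogate variables in the model (SE 0.22, adjusted p = 1.0).

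In line 1, 0 of the 8 genes had an edgeR p under 0.005, against 0.35% of all genes. Line 3 had 1 of 8 (Sqle), against 0.93%, and the difference between the lines also 1 of 8 (Sqle), against 0.843%. The numbers with an adjusted p under 0.05 were 0 of 8 in each of these comparisons in edgeR and in DESeq2, against 0.0% of all genes in edgeR. At an unadjusted p under 0.05 there was 1 of 8 in line 1 (Sqle), against 3.96% of all genes, 2 of 8 in line 3 (Sqle and Lss), against 7.93%, and 1 of 8 between the lines (Sqle), against 8.1%. The WT and OE mice of a line overlapped in each of the 8 genes, and groups without overlap were found in 0.0402% of all genes in line 1 and 0.0115% in line 3. With 1 gene of 8, the share over the members rests on Sqle alone. In line 3 all 8 genes had a negative log2 fold change (median -0.27), and in line 1 there were 4 positive and 4 negative (median -0.01). Lss ranged from 5.75 to 12.3 CPM in WT mice of line 3 (median 9.01) and from 4.67 to 8.39 CPM in OE mice (median 5.73), with 8 of 8 OE mice below the WT median and 4 below the lowest WT mouse. Its log2 fold change was -0.58 in line 3 (SE 0.20, adjusted p = 0.514, exact permutation p = 0.00389) and -0.23 in line 1 (SE 0.21, adjusted p = 1.0, exact permutation p = 0.243), and the difference between the lines was -0.35 (SE 0.29, adjusted p = 0.81, permutation p = 0.26). Cyp51 had log2 fold changes of 0.01 in line 1 and -0.05 in line 3, with 95% intervals of -0.22 to 0.24 and -0.27 to 0.17.

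Marker levels of other cells are given by group, and no single marker gene passed the test by genotype, in either line or between the lines (edgeR, smallest adjusted p = 0.525). The median of the summed neuron markers was 1999 CPM in WT and 2127 CPM in OE mice of line 1, and 2379 and 2025 CPM in line 3. Of the 4 genes summed, Snap25, Syt1 and Stmn2 had a negative fitted difference between the lines (-0.29, -0.40 and -0.83), as Sqle had, and Rbfox3 a positive one (0.52, SE 0.24, adjusted p = 0.587). Summed striatal neuron markers (3 of 4 genes passed the filter) had medians of 1528 and 1007 CPM in line 1 and 938 and 1487 CPM in line 3, and those of choroid plexus 103.7 and 78.4 CPM in line 1 and 1118 and 469.4 CPM in line 3. With each of these as a covariate the difference of Sqle between the lines was -0.82 (SE 0.20) for neuron markers, -0.85 (SE 0.24) for striatal neuron markers and -0.97 (SE 0.22) for choroid plexus markers, and with Mbp it was -0.93 (SE 0.21), with adjusted p between 0.437 and 1.0. Lss in both lines together was then between -0.44 and -0.40. All 10 oligodendrocyte markers had a lower fitted mean in OE mice (median log2 fold change -0.35), and none of them had an edgeR p under 0.05. Over mice the others had an r with Mbp between 0.874 (Opalin) and 0.97 (Mog), so their shared direction is not 10 separate results. The paper, with another model and with gene modules, reported a module that held Mbp as upregulated.

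**Figure D2:**
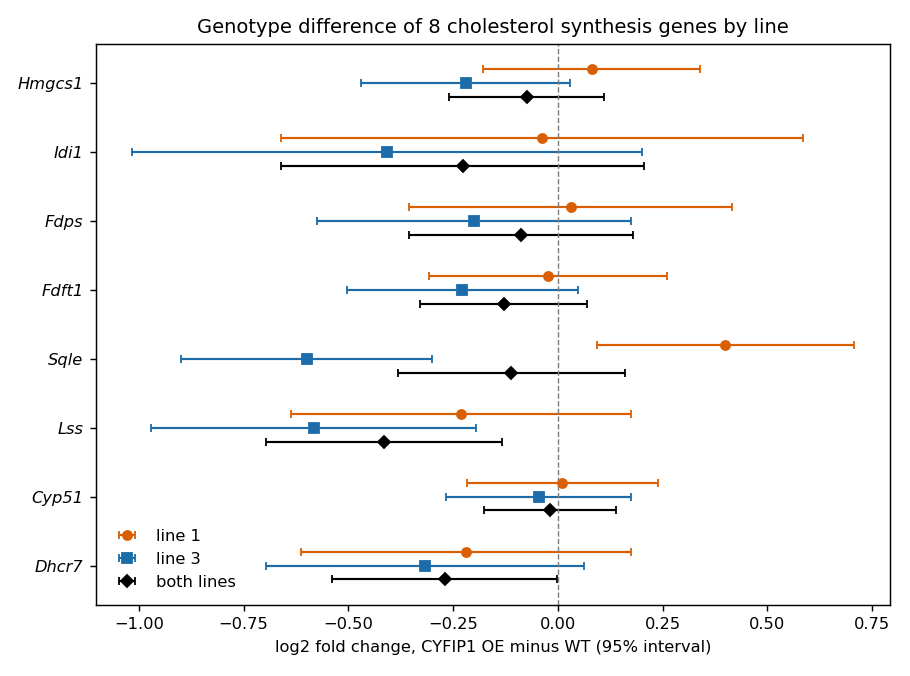
Log2 fold change (CYFIP1 OE minus WT, x axis) of the 8 genes in line 1 (circles), line 3 (squares) and both lines (diamonds), with 95% intervals from the edgeR fit. The intervals of Sqle lie on opposite sides of 0 in the lines, at 0.40 in line 1 and -0.60 in line 3.

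Between the WT mice of the lines none of the 8 genes passed the test. Hmgcs1 ranged from 213.5 to 258.3 CPM in WT mice of line 1 (median 241.3) and from 264.1 to 339.8 CPM in WT mice of line 3 (median 282.0), so that these groups did not overlap. Groups without overlap in this comparison were found in 0.0459% of all genes. The fitted difference, line 3 minus line 1, was 0.27 (SE 0.13, adjusted p = 1.0), and Hmgcs1, Sqle (0.35, SE 0.15) and Lss (0.45, SE 0.20) had an unadjusted p under 0.05. These were 3 of the 8 genes, against 4.41% of all genes, and 0 of the 8 had an adjusted p under 0.05 in edgeR or DESeq2. Sqle of the OE mice of line 1 (median 24.8 CPM) was thus near that of the WT mice of line 3 (23.2 CPM). Line and the groups of mice with a shared name prefix cannot be told apart here. None of the 8 genes passed the test for sex (largest log2 difference, female minus male, 0.18 for Fdps, adjusted p = 0.97), with 0 of 8 at an adjusted p and 0 of 8 at an unadjusted p under 0.05 in edgeR, against 0.0631% and 4.62% of all genes, and 0 of 8 at an adjusted p under 0.05 in DESeq2.

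Hmgcs1, Idi1 and Fdft1 had a wider spread from mouse to mouse in OE than in WT mice. The SD of log2 CPM within the groups of genotype and line was 0.11 in WT and 0.33 in OE mice for Hmgcs1, a ratio of 2.98. The ratio was 2.38 for Idi1 (0.39 and 0.92), 2.27 for Fdft1 (0.17 and 0.38) and 1.5 for Fdps (0.32 and 0.48). Over all genes the median ratio was 1.12 and 64.4% of genes had a ratio above 1. The ratio of Hmgcs1 was larger than that of 99.4% of genes, that of Idi1 than 98.1% and that of Fdft1 than 97.6%. In line 3, 5 of 8 OE mice had less Hmgcs1 than the lowest WT mouse and 1 had more than the highest, and in line 1 there were 2 below and 3 above among 7. Without the low-connectivity mouse the ratios were 3.03, 2.31 and 1.56 for Hmgcs1, Idi1 and Fdft1, with a median of 1.03 over all genes. Sqle, Lss, Cyp51 and Dhcr7 had ratios of 1.09, 0.86, 0.80 and 0.97. Without the mice aged 77 days the ratios of Hmgcs1, Idi1 and Fdft1 were 3.35, 2.08 and 2.72. In line 1 the OE mice came from 5 name prefixes and the WT mice from 2, and in line 3 from 4 each. The spread by genotype in line 1 thus cannot be fully told apart from that by prefix and age. These ratios were not tested and are given as a description. Summed microglia markers had an SD of 51.1 CPM in OE and 21.1 CPM in WT mice, and their part in this spread was not tested.

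Over all 31 mice together co-variation was strongest among Hmgcs1, Idi1, Fdps, Fdft1 and Sqle. Within WT mice several of these pairs had a low r. Of the 28 pairs, 21 had a positive Pearson's r, and the median r was 0.224 (range -0.185 to 0.69), while the median r of a member with all other genes lay between -0.025 and 0.01. Only the pair Hmgcs1 and Fdft1 passed the test in both directions (larger adjusted p under 0.05 over all 17427 other genes). Its r was 0.69 (permutation p = 1e-05, the smallest that 100000 permutations can give, larger adjusted p = 0.0436) and its rho 0.701 (permutation p = 2e-05, larger adjusted p = 0.426). With the 2 mice most distant in Hmgcs1 left out r was 0.61, within the lines 0.589 and 0.768, and within genotypes 0.522 in WT and 0.717 in OE mice. Among all genes, 1.02% were called as correlated with Hmgcs1, 10% with Idi1, 0.0402% with Fdft1, 0.964% with Sqle and 0.0% with each of the other 4. In an edgeR model with sex, line and genotype, Fdft1 rose by 0.78 log2 units per log2 unit of Hmgcs1 (SE 0.16, the larger of the adjusted p in both directions was 0.019), the 1 pair of 28 called by slopes. Slopes on Hmgcs1 were called for 0.671% of all genes, on Idi1 for 9.22%, on Fdft1 for 1.97%, on Sqle for 1.03% and on the other 4 for 0.0%. These shares were, without the low-connectivity mouse, 1.64% for Hmgcs1, 5.38% for Idi1, 0.0113% for Fdft1 and 2.78% for Sqle.

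Next by r were Hmgcs1 with Sqle (r 0.525, permutation p = 0.00249, larger adjusted p = 0.11, rho 0.502) and Fdps with Fdft1 (r 0.48, permutation p = 0.00597, larger adjusted p = 0.332, rho 0.285). Idi1 followed the other early genes with r between 0.372 (Fdps) and 0.466 (Hmgcs1). Within genotypes r was 0.102 in WT and 0.525 in OE mice for Hmgcs1 and Idi1. It was -0.244 and 0.539 for Idi1 and Fdps, and 0.189 and 0.556 for Fdps and Fdft1. Hmgcs1 and Sqle had closer values, 0.476 in WT and 0.532 in OE mice. The highest r in WT mice was that of Sqle and Lss (0.587, against -0.148 in OE mice). Differences of r between the genotypes were not tested. The last genes of the pathway, Cyp51 and Dhcr7, had lower values, and Dhcr7 had few reads (34 to 134 per mouse). Cyp51 had an r of 0.218 with Hmgcs1 and -0.091 with Sqle, and Dhcr7 had an r of -0.185 with Idi1 and 0.242 with Fdft1. Dhcr7 had an r with Idi1 of -0.545 in line 1 and 0.307 in line 3, a difference that was not tested. Without the low-connectivity mouse 0 of the 28 pairs were called, although the highest r was then 0.767. Fdft1 was lowest of the 31 mice in that mouse, at 36.4 CPM.

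**Figure D3:**
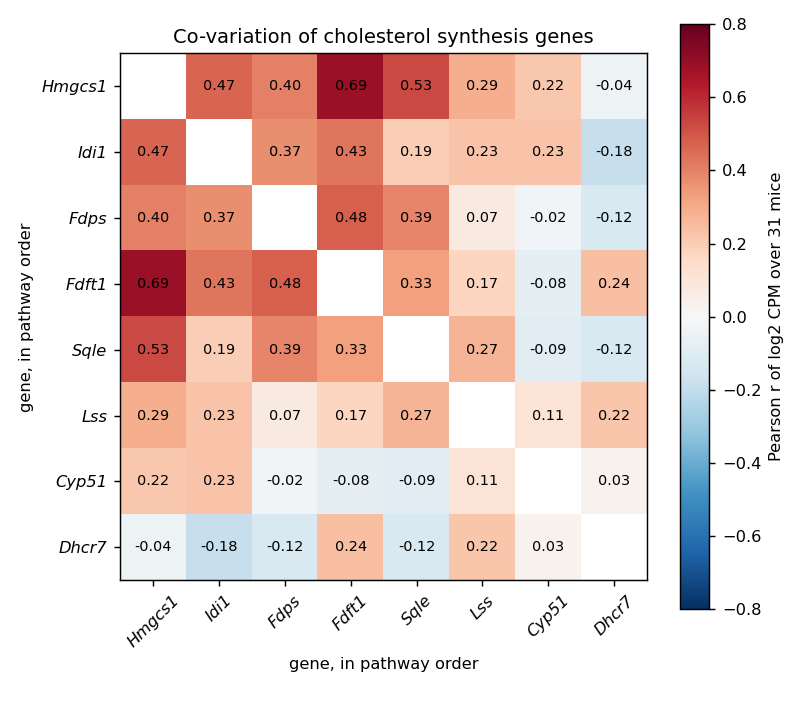
Pearson's r of log2 CPM over the 31 mice for each pair of the 8 genes, in pathway order on both axes, with red for positive and blue for negative values. The highest value is 0.69 for Hmgcs1 and Fdft1, and the rows of Cyp51 and Dhcr7 hold most of the values near or below 0.

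Genes whose pattern was most like that of the 8 included several known from neurons, while neuron markers as a whole did not share 1 direction. Genes were ranked by r with the mean standardized log2 CPM of the 8 members, among 10997 other genes with a mean of at least 5 CPM. The 10 highest were Snap91 (r 0.812), Tuba1a (0.80), Acsl4 (0.79), Syt1 (0.78), Dlc1 (0.772), ENSMUSG00000071567 (0.769), Aak1 (0.767), Tmem59l (0.757), Btbd10 (0.757) and Erbb4 (0.752). Snap91 and Aak1 act in clathrin-mediated endocytosis of synapses, Syt1 is the calcium sensor of transmitter release, Tuba1a is a tubulin and Acsl4 activates fatty acids. For Snap91 r was 0.779 in line 1, 0.854 in line 3, 0.676 in WT and 0.942 in OE mice. The 5 lowest were Csrnp3 (-0.765), Serpine2 (-0.757), Mink1 (-0.687), mt-Ts1 (-0.677) and C1qa (-0.676), the last a complement gene of microglia. Among enzymes of the pathway that were not members, r ranged from -0.326 (Ebp) to 0.735 (Msmo1, 15th), and Srebf2, the gene of SREBP2, had an r of -0.474. Of the neuron markers, Snap25 and Stmn2 had an r of 0.56 and 0.485 and Rbfox3 one of -0.406. The excitatory markers Slc17a6, Slc17a7 and Camk2a had 0.53, 0.417 and -0.024 (rho 0.513, 0.527 and 0.321). The inhibitory markers Gad1, Gad2 and Slc32a1 had 0.173, -0.029 and -0.158 (rho -0.07, -0.205 and -0.473). By rho the excitatory markers were thus all positive and the inhibitory ones all negative, as a description. These values include the low-connectivity mouse. Mbp had an r of -0.079.

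Mbp, which encodes a main protein of myelin, ranged from 384 to 2744 CPM over the mice, and none of the cholesterol synthesis genes passed the test for a rise with it. The edgeR slopes on log2 CPM of Mbp, with sex, line and genotype in the model, lay between -0.20 and 0.09 log2 units per log2 unit of Mbp. For this relation 0 of the 8 had an adjusted p under 0.05 in edgeR, against 6.99% of all genes, and with DESeq2's size factors also 0 of 8. Sqle (slope -0.20, SE 0.09, adjusted p = 0.192) and Fdps (-0.20, SE 0.09, adjusted p = 0.199) were the 2 with an unadjusted p under 0.05, against 19.7% of all genes, both negative. Pearson's r with Mbp was -0.337 for Sqle (permutation p = 0.063, adjusted p = 0.271, rho -0.373, permutation p = 0.0391) and -0.325 for Fdps (permutation p = 0.0735, adjusted p = 0.291, rho -0.419, permutation p = 0.0192). With the 2 mice most distant in Mbp left out, r was -0.399 and -0.312. For the other 6 genes r lay between -0.222 and 0.215, and 0 of the 8 passed the adjustment by r or rho, against 7.51% of all genes by r and 6.59% by rho.

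Within the lines the values of Sqle, Fdps and Hmgcs1 differed. In line 1 r with Mbp was -0.787 for Sqle, -0.632 for Fdps and -0.621 for Hmgcs1, and in line 3 it was -0.022, -0.030 and 0.008. These r are over WT and OE mice together, without adjustment for genotype. The slopes that follow had sex and genotype in the model. The edgeR slope of Fdps was -0.50 in line 1 alone (SE 0.14, adjusted p = 0.0664) and -0.03 in line 3 alone. That of Sqle was -0.35 in line 1 alone (SE 0.11, adjusted p = 0.141) and -0.04 in line 3 alone. The difference of the slopes between the lines was not tested. Idi1 went the other way, with an r of -0.28 in line 1 and 0.47 in line 3.

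**Figure D4:**
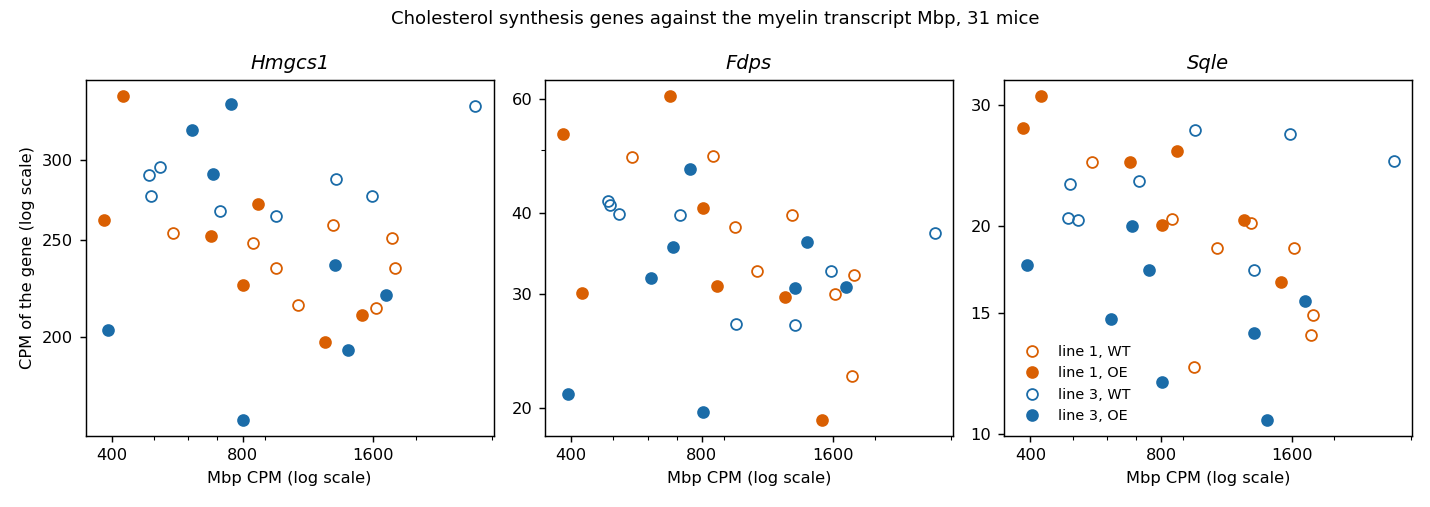
CPM of Hmgcs1, Fdps and Sqle (y axes, log scale) against CPM of Mbp (x axes, log scale) in the 31 mice, orange for line 1 and blue for line 3, open for WT and filled for OE mice. Orange points fall from left to right (r -0.787 for Sqle, over both genotypes without adjustment) and blue points show no such order (r -0.022).

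A wider list of 49 genes for cholesterol synthesis, its regulation, uptake, efflux and turnover and for fatty acid synthesis was set beside the members, and 47 of these passed the filter. On Mbp, 6 of the 47 rose at an adjusted p under 0.05 and 0 fell in edgeR, against 3.28% of all genes that rose and 3.71% that fell. They were Scd2 (slope 0.43, SE 0.07, adjusted p = 4.06e-05), Scd1 (0.41, SE 0.08, adjusted p = 0.000643) and Acly (0.30, SE 0.07, adjusted p = 0.00368) of fatty acid synthesis, the cholesterol exporters Abcg1 (0.42, SE 0.10, adjusted p = 0.00621) and Abca1 (0.39, SE 0.12, adjusted p = 0.0337), and Srebf1 (0.47, SE 0.14, adjusted p = 0.0331), which encodes the factor that drives fatty acid synthesis. Scd1 and Scd2 are the desaturases that make oleic acid, a main fatty acid of myelin, and Acly makes acetyl-CoA for both fatty acids and sterols. None of the 14 other synthesis genes of the sterol pathway passed, 12 of them had a negative slope, and Srebf2 (-0.22, adjusted p = 0.122) and Mvd (-0.39, adjusted p = 0.144) were among the 3 genes of the list with the smallest p among negative slopes. Without the low-connectivity mouse the slope of Mvd was -0.06.

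Against neuron markers several of the 8 genes rose. The measure was the mean log2 CPM of Rbfox3, Snap25, Syt1 and Stmn2, a measure added after the relation to Mbp had been seen, and Rbfox3 ran opposite to the other 3 in its r with the members' mean. Hmgcs1 (slope 0.74, SE 0.17, adjusted p = 0.00499), Sqle (0.98, SE 0.26, adjusted p = 0.0177) and Fdps (0.95, SE 0.27, adjusted p = 0.0312) rose with it in edgeR, 3 of 8 genes against 5.03% of all genes, and 0 of 8 fell. The sterol carrier Stard4 (1.27, SE 0.34, adjusted p = 0.0186) of the wider list also rose, while Scd1 (-1.41, SE 0.26, adjusted p = 0.000454) and the lysosomal cholesterol transporter Npc1 (-0.85, SE 0.26, adjusted p = 0.047) fell. With Mbp also in the model the slope of Hmgcs1 was 1.2 (adjusted p = 0.0102), and those of Sqle and Fdps were 1.15 and 1.04 (adjusted p = 0.195 and 0.265). In either line alone 0 of the 8 were called in edgeR, against 1.55% of all genes in line 1 and 0.699% in line 3, with slopes of Hmgcs1 of 0.56 in line 1 and 0.79 in line 3. Markers of excitatory neurons gave 2 of 8, Sqle (slope 0.28, adjusted p = 0.00685) and Hmgcs1 (0.16, adjusted p = 0.0389), against 5.68% of all genes.

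Idi1 fell with the mean of 4 microglia markers (C1qa, C1qb, Csf1r and Cx3cr1), with a slope of -1.57 (SE 0.33, adjusted p = 0.00173), as 1 of 8 genes against 10.5% of all genes, so the share of members called was near that of all genes. Its slope was -1.97 in line 1 alone (adjusted p = 0.0253) and -0.985 in line 3 alone (adjusted p = 0.477). For markers of astrocytes, striatal neurons, inhibitory neurons and vascular cells 0 of the 8 were called in edgeR, against 3.55%, 13.0%, 15.4% and 0.0% of all genes, and 1 of 8 had an unadjusted p under 0.05 for each, against 15.3%, 23.8%, 28.6% and 4.3%. The smallest adjusted p of these relations was that of Sqle to striatal neuron markers (slope -0.17, adjusted p = 0.0555).

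**Figure D5:**
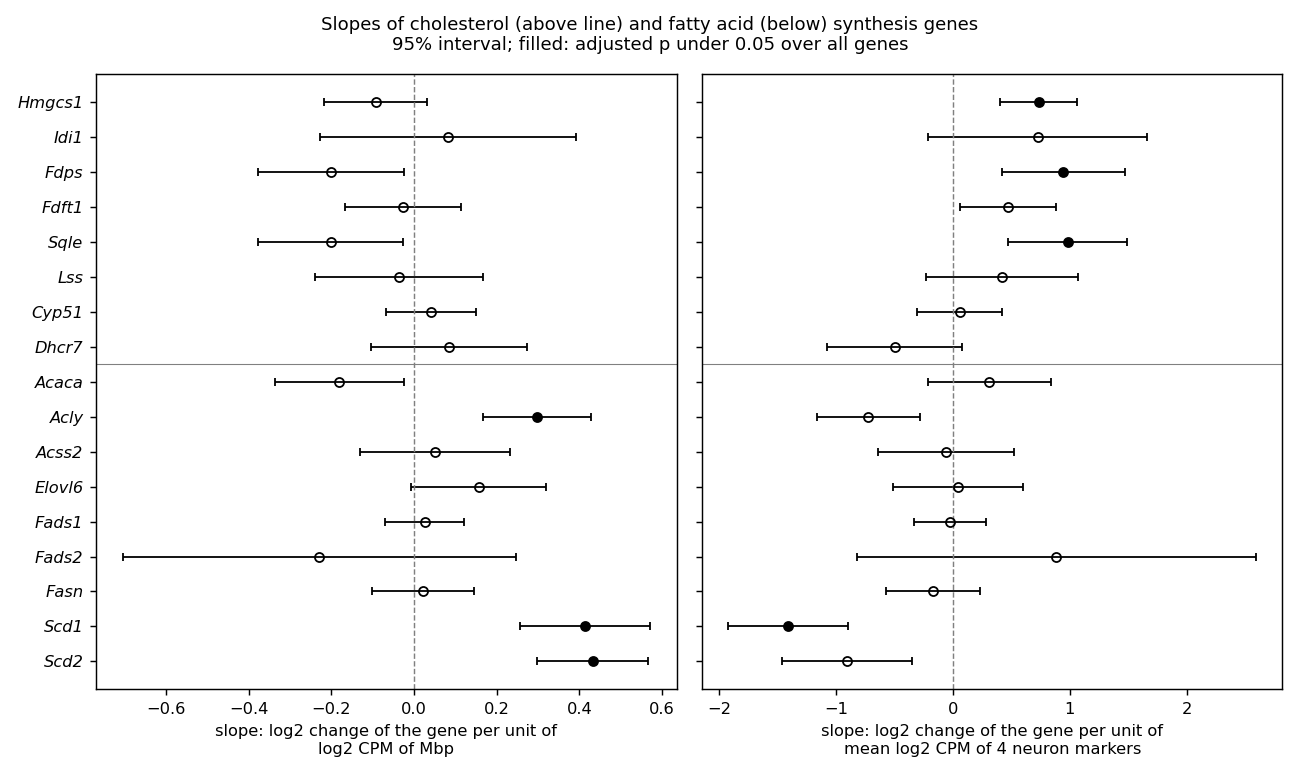
Slopes with 95% intervals of the 8 cholesterol synthesis genes (above the line) and 9 fatty acid synthesis genes (below) on log2 CPM of Mbp (left) and on the mean log2 CPM of 4 neuron markers (right), filled where the adjusted p over all genes was under 0.05. Scd1, Scd2 and Acly are filled to the right of 0 for Mbp, and Hmgcs1, Fdps and Sqle are filled to the right of 0 for neuron markers.

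By genotype, 0 of the 47 genes of the wider list had an adjusted p under 0.05 in edgeR, in both lines together or in either line, and at an unadjusted p under 0.05 there was 1 in both lines together, 1 in line 1 and 5 in line 3, against 4.3%, 3.96% and 7.93% of all genes. Their median log2 fold change was -0.02 in both lines together, 0.01 in line 1 and 0.04 in line 3. Srebf2, the gene of SREBP2, had the smallest p among those higher in OE mice (0.29, SE 0.13), followed by Mvd (0.45, SE 0.25) and Lcat (0.36, SE 0.24). Abcg4 (-0.22, SE 0.15), Hsd17b7 (-0.19, SE 0.13) and Fads1 (-0.10, SE 0.07) led those lower, and all had an adjusted p of 0.999. In line 3 the values were 0.49 for Srebf2 (SE 0.18, adjusted p = 0.514), 0.83 for Mvd (SE 0.33) and 0.34 for Mbtps1 (SE 0.15), against -0.46 for Abcg4 (SE 0.20), -0.35 for Mvk (SE 0.17) and -0.34 for Elovl6 (SE 0.17). Without the low-connectivity mouse those of Srebf2 and Mvd were 0.26 and 0.12. In line 1 Acaca (0.30) and Lcat (0.55) led those higher, and Mbtps1 (-0.34), Abcg1 (-0.35) and Npc1 (-0.23) those lower. The difference between the lines had an edgeR p under 0.005 for Mbtps1 (0.68, SE 0.21, adjusted p = 0.535), which encodes a protease that cuts SREBP. Elovl6 of fatty acid synthesis (-0.45, SE 0.24, adjusted p = 0.66) was among those lower.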

How the data were processed

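RNA of the BLA of 31 mice was sequenced with QuantSeq 3′ Fwd. The authors mapped reads with STAR to GRCm38 with Gencode annotation, collected sequencing metrics with Picard and MultiQC and quantified genes with Salmon, and the deposited values are estimated counts per gene. These expected counts were rounded to whole numbers. Gene names and positions came from the GENCODE annotation of GRCm38, which held 48349 of the 48709 gene IDs. The 17428 genes that reached 10 reads in 20% or more of the mice entered the tests, and edgeR 4.0.16 (R 4.3.3) with TMM normalization and its quasi-likelihood test was fitted to all of these genes over all 31 mice with sex, line and genotype, with Benjamini-Hochberg adjustment over all genes tested. The genotype difference in each line came from the same fit with an interaction term. A negative log2 fold change means lower in OE mice, and sex differences are female minus male. The study's model also held 5 principal components of sequencing metrics, which were not used here, and 5 surrogate variables (sva 3.50.0) took their place in an alternative.

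Relations to Mbp and to marker lists were slopes in the same edgeR model, and to the mean log2 CPM of a list the list's own genes were not tested. Correlations used log2 CPM with a prior count of 2 and 100000 permutations of the mice, two-sided, adjusted over all genes, in Python 3.11.15 (numpy 2.4.6, scipy 1.17.1, pandas 2.3.3), and figures were drawn with matplotlib 3.10.9. A pair of members was called where its adjusted p was under 0.05 in both directions. Single members were also compared between genotypes in each line by a two-sided exact permutation test of mean log2 CPM over mice, and between lines by 100000 permutations of genotype within lines, both added after seeing the data. The latter tests for no genotype difference in either line, and both ignore name prefixes. DESeq2 1.42.0 was an alternative test. The procedures were tested on simulated data. P-values measure the spread between mice. Total reads per mouse are given in the results, and genes with few reads, such as Lss and Idi1, carry more counting error.

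The 8 members, the wider list and the marker lists were chosen with earlier results of these data known. Named genes were the 8 members and Mbp, the 3 genes of the wider list with the smallest p in each direction of a comparison together with any of its genes past the adjustment, and the 10 highest and 5 lowest genes by r with the members' mean. Some genes that this rule names, and 1 other setting of the relation to Mbp, are not reported here.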

Additional observations from a re-analysis of the deposited data

Results flagged for a closer look

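In 8 WT mice of line 3, the highest Hmgcs1 value was 339.8 CPM and the next was 295.4 CPM, a gap of 0.587 of the group's range against a critical value of 0.526. In 7 OE mice of line 1, the highest Fdft1 value was 106.9 CPM and the next 81.1 CPM, a gap of 0.571 against a critical value of 0.568. Such gaps were looked for in 32 sets of mice (8 genes in 4 groups) and 2 were found, and chance gives about 1 in 20 sets.

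The genotype difference of Sqle differed between the lines by -1.00 on the log2 scale in an interaction term (edgeR adjusted p = 0.476), with 6 of 7 OE mice above the WT median in line 1 and 8 of 8 below it in line 3.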

How the results depend on the processing

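No paired analysis was possible because the labels give no replicate numbers shared between genotypes, and in its place 1 fit had the name prefix as a factor, over the 5 prefixes that hold both genotypes (9 WT and 9 OE mice, 16 of them of line 3 and 2 of line 1). The marker relations, the edgeR slopes between members, the spread and the marker covariates were added after seeing the data. No member passed the adjustment by genotype, line or sex in any alternative. At an unadjusted p under 0.005, the number of members by genotype in both lines was 0 in the main fit (0.293% of all genes). It was 1 with 5 surrogate variables (0.637%), choroid plexus markers as a covariate (0.304%) and name groups with both genotypes (0.368%), and 0 otherwise. In line 3 it was 2 with striatal (0.935%) or choroid plexus markers (0.798%) as a covariate, and 1 otherwise (0.93% in the main fit). For the difference between lines it was 0 with 5 surrogate variables (0.27%), and 1 otherwise (0.843% in the main fit). For Mbp it was 1 in line 1 alone (3.93%), and 0 otherwise (7.9% in the main fit). In the fit of name groups with both genotypes, which is mostly of line 3, Sqle was -0.59 (SE 0.17, edgeR adjusted p = 0.999), against -0.60 in line 3 and 0.40 in line 1 over all mice.

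These values changed sign, and the cause was not tested. With 5 surrogate variables, Cyp51 was 0.0036 in both lines, -0.021 in line 1, 0.033 in line 3 and 0.055 between lines, Fdps -0.21, 0.056 and 0.27 in line 1, line 3 and between lines, Hmgcs1 -0.029 in line 1 and Idi1 0.29 between lines. In name groups with both genotypes Cyp51 was 0.027. Without the low-connectivity mouse Hmgcs1 was -0.010 for sex. Without the mice aged 77 days, Fdft1 was 0.026, Idi1 0.20 and Fdps -0.42 in line 1, and Dhcr7 0.082 and Fdps 0.24 between lines. With Mbp as a covariate Idi1 was 0.074 and Fdps -0.090 in line 1. With neuron markers Fdps was -0.062 and Hmgcs1 -0.011 in line 1, and Fdps 0.013 between lines. With striatal markers Cyp51 was -0.061 in line 1, 0.012 in line 3 and 0.073 between lines, and Fdps -0.019 in line 1. Slopes on Mbp were 0.032 for Lss without covariates and -0.0030 for Idi1 on 10 oligodendrocyte markers. In line 3 alone they were 0.11 for Fdft1, 0.048 for Lss and 0.0010 for Hmgcs1, and in line 1 alone -0.35 for Idi1.

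Neuron markers called 1 member with Mbp also in the model (0.597% of all genes) and 0 in line 1 (1.55%) and line 3 (0.699%) alone, against 3 otherwise (5.03%), and at an unadjusted p under 0.005 there was 1 in line 1 (3.39%) and 0 in line 3 (2.53%). Excitatory neuron markers called 0 with Mbp (0.878%), 1 without the mice aged 77 days (3.06%) and 0 in line 1 (1.15%) and line 3 (1.59%), against 2 otherwise (5.68%), with 1 without those mice (4.95%) and 0 in each line (2.83% and 3.54%) at an unadjusted p under 0.005. Microglia markers called 2 without the mice aged 77 days (Idi1 and Fdft1, 4.33%) and 0 in line 3 (0.855%), against 1 otherwise (10.5%), the same numbers as at an unadjusted p under 0.005 (6.35% and 3.27%). Without the low-connectivity mouse 1 was called for striatal (Sqle, 13.1%) and 1 for inhibitory neuron markers (Hmgcs1, 5.55%), with 1 (12.3%) and 2 (6.95%) at an unadjusted p under 0.005. Of the 28 pairs, 2 were called on residuals after sex, line and genotype, and 0 by Spearman's rho, with DESeq2's size factors, in either line, in either genotype, or without the low-connectivity mouse by correlation or by edgeR slope (1 otherwise).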
